A study of Mus musculus with 6 samples.

Results

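Genes of the unfolded protein response and the integrated stress response were followed in ADC106 cells, a mouse angiosarcoma line, after transfection of an miR-497 mimic. The 40 genes were chosen by symbol from a table of 55401 gene identifiers. The choice went by what they are known to do, but was made with earlier results of these data known. Their symbols matched 41 rows, because Ddit3 has a second identifier that held no count. After the filter on low counts 39 of the 40 genes were tested, among 14661 genes in all, and Slc7a5 was not tested because it was listed at 0 in all 6 libraries.

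Both groups were ADC106 cells transfected with 12.5 nM of a microRNA mimic and harvested at day 3. The control group received a mimic labelled NC, and its cells carry the genotype label WT. The other group received the miR-497 mimic and carries the genotype label miR-497 overexpression. Each group had 3 libraries of poly(A)-enriched RNA, and untransfected cells were not analysed here. The labels do not say whether the 3 libraries of a group came from separate cultures, so the p-values measure only the spread between these libraries, which may be technical. One cell line was used, so nothing here extends to other angiosarcoma cells.

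The unfolded protein response is the answer of a cell to misfolded proteins in the endoplasmic reticulum (ER). The membrane sensors Ern1 (IRE1), Eif2ak3 (PERK) and Atf6 detect the load, and through Xbp1 and the cleaved form of Atf6 they raise transcription of ER chaperones and of the degradation machinery. PERK and the other eIF2 kinases phosphorylate the translation factor eIF2, which lowers protein synthesis in general but favours translation of Atf4, and Atf4 switches on genes for amino acid synthesis and uptake; this shared arm is the integrated stress response. Much of this control acts on translation, protein cleavage and splicing of Xbp1 mRNA, which gene counts do not record, so the values below are transcript levels only.

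MicroRNAs bind mRNAs through bases 2 to 8 of the guide strand, the seed. The labels do not give the sequence or the strands of the mimic; the RefSeq entry for the mouse guide strand (GRCm38.p6, chr11:70234730-70234751, plus strand) is shown because the matches described next were searched with it, with the seed in capitals.
mmu-miR-497a-5p: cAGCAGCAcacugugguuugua
A match was TGCTGCT, or GCTGCTA without the leading T, in the longest 3' UTR of the GENCODE M21 transcripts, and TGCTGCTA is the longer match called 8mer. Of the 39 tested genes, 8 held at least 1 match, with 13 matches in all. The following 23-base stretches of mRNA come from called genes of 5 role groups and include the only 8mer among the members, with the match in capitals.
Chac1: atccccccatTGCTGCTgccaat
Psat1: tttagtcaggTGCTGCTtttaaa
Pdia6: ccctcctgacTGCTGCTtgaatg
Syvn1: taagggtgtgTGCTGCTccttaa
Ern1: atctgttggtTGCTGCTgtgact
Atf6: ttttttttttTGCTGCTAatatg

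Promoter words known from this pathway were also searched, on both strands, from 250 bases before to 50 after each RefSeq transcription start (GRCm38.p6). A RefSeq promoter was matched for 36 of the 40 genes. The word TGATGNAA, the core of the composite site that Atf4 and C/EBP factors share, was present in 7 of them, or 19.4%, against 4.51% of all 27025 genes with a promoter. The ER stress element (ERSE), CCAAT and CCACG with 9 bases of any kind between them, was present in 8, or 22.2%, against 0.137% of all genes. The shorter ERSE-II, ATTGG and CCACG with 1 base between them, was found in Herpud1 alone of the 36 (0.0444% of all genes), and the word TGACGTGG, bound by Xbp1 and Atf6, in 0 of the 36 (0.714% of all genes). Both the words and the genes were picked from what is known of this pathway, so a share above that of all genes is not a finding of these data. The words overlap in part of their letters, and a match is a description of the letters, not of binding. Windows of 30 bases are shown for genes that fell and for genes that did not, on the strand of the gene, with the word in capitals; where the word lies on the opposite strand the capitals show its reverse complement.
Atf3: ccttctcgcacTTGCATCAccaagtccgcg
Chac1: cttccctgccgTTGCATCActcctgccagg
Asns: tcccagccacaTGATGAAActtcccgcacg
Trib3: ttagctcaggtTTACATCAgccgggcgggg
Hspa5: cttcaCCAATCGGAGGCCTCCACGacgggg
Pdia6: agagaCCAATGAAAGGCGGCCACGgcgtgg
Dnajc3: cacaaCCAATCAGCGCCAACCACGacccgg
Canx: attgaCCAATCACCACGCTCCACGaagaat
The Asns word started 23 bases before the transcription start and the Chac1 word 193 bases before it. The ERSE started 65 bases before the start in Hspa5 and 98 bases before it in Pdia6.

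Library totals ranged from 25777676 to 36159499 counts. The lowest count of any tested member in any library was 102, for Chac1. Replicates differed from each other by more than sampling noise, with a chi-square per degree of freedom of 7.73 to 11.6 within groups. All 10 endothelial markers were tested, with a summed level of 8615 to 9620 CPM (counts scaled to library size) over the 6 libraries. Of these, 6 passed the test as higher with miR-497, Emcn with the largest log2 fold change (1.03), 3 as lower (Pecam1 -0.52, Flt1 -0.40 and Esam -0.31), and Kdr did not pass. Leukocyte markers summed to 0.881 to 1.44 CPM, with Cd3e and Itgam among those at 0, and epithelial markers to 0.394 to 1.12 CPM. Fibroblast and mural markers summed to 317 to 337 CPM with NC and 504 to 600 CPM with miR-497, with Lum at 0; Col1a1, Col1a2 and Acta2 passed the test as higher and Pdgfrb as lower. Mitochondrially encoded genes took 2.03% to 2.15% of the counts with NC and 2.94% to 3.77% with miR-497. The part of both shifts in the results below was not tested. In bulk RNA, fewer cells that express a gene and less RNA of it per cell cannot be told apart.

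With miR-497, 20 of the 39 tested genes were lower and 8 higher at an adjusted p under 0.05 (quasi-likelihood test of edgeR, adjusted over all genes tested by Benjamini-Hochberg), and 11 did not pass. Among all genes tested, 26.0% were lower and 23.8% higher, and the share called in either direction was 49.8%. Upper-quartile scaling raised the higher members to 13, with 19 lower. The median log2 fold change (miR-497 over NC) of the 39 genes was -0.19, against -0.02 for all genes tested. Of the 11 genes that fell by at least 0.5 on the log2 scale, 8 were regulators or amino acid enzymes. Among all genes 14.0% fell by that much and 10.7% rose by that much, and among the members 1 rose by that much, Ppp1r15a. In 30 of the 39 genes the 3 miR-497 values did not overlap the 3 NC values, against 57.4% of all genes tested. They lay above NC in 11 genes (27.8% of all genes) and below in 19 (29.6% of all genes).

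**Figure D1:**
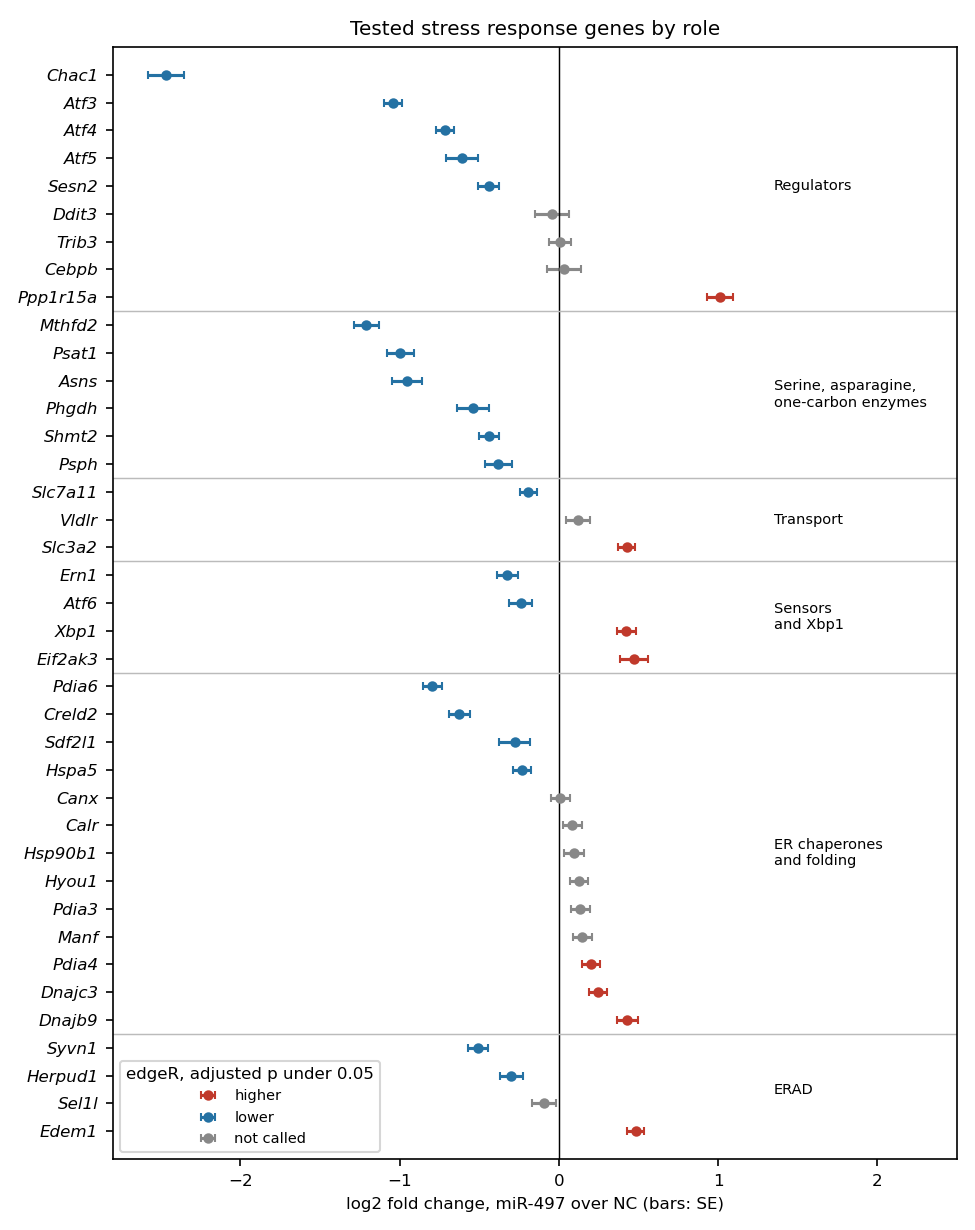
Log2 fold change of each of the 39 tested genes, miR-497 over NC (x axis, with its standard error as bars), in role groups and coloured by the edgeR call at an adjusted p under 0.05. All 6 amino acid and one-carbon enzymes lie left of 0, from -1.21 to -0.38, while ER chaperones lie on both sides, from -0.79 to 0.43.

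Among the regulators, 5 of 9 fell, 1 rose and 3 did not pass the test. Atf4, the transcription factor at the centre of the integrated stress response (ENSMUSG00000042406, GRCm38 chr15:80255184-80257541, plus strand), was at 260, 269 and 262 CPM in NC libraries 1 to 3 and at 169, 165 and 149 CPM in miR-497 libraries 1 to 3. The groups were well apart, with the third miR-497 library lowest. Its mean fell from 264 ± 5.10 to 161 ± 10.2 CPM (n = 3, SD), a log2 fold change of -0.71 (standard error 0.0558, edgeR adjusted p = 1.9e-08). Atf3, a stress-induced factor of the same leucine zipper family, was at 142, 152 and 140 CPM with NC and at 68.8, 70.7 and 71.5 CPM with miR-497. Values within each group were tight and the fall was -1.04 on the log2 scale (standard error 0.0547, edgeR adjusted p = 1.6e-10). Atf5, a further relative that is translated under stress in the manner of Atf4, was at 20.4, 19.6 and 20.8 CPM with NC and 14.5, 11.7 and 13.7 CPM with miR-497, also without overlap (log2 fold change -0.61, standard error 0.0999, edgeR adjusted p = 7.8e-05).

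Chac1, an Atf4-responsive enzyme that degrades glutathione (ENSMUSG00000027313, GRCm38 chr2:119351229-119354381, plus strand), had the largest change of the 39. It was at 21.1, 21.9 and 20.4 CPM with NC and at 4.06, 3.62 and 3.81 CPM with miR-497. The mean was 5.52-fold lower, a log2 fold change of -2.47 (standard error 0.114, edgeR adjusted p = 3.8e-11). Sesn2, which restrains mTORC1 when leucine is scarce, was at 72.9, 78.0 and 84.6 CPM with NC and 59.3, 58.3 and 56.1 CPM with miR-497, so the groups were apart although the NC libraries spread more widely. Its log2 fold change was -0.44 (standard error 0.0665, edgeR adjusted p = 3.3e-05).

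A further 3 regulators did not pass the test. Ddit3 (CHOP), the pro-apoptotic factor whose transcription Atf4 drives, was at 14.2, 12.5 and 13.1 CPM with NC and 13.1, 12.0 and 13.5 CPM with miR-497. Trib3, a pseudokinase induced by Atf4 and CHOP, was at 41.0, 38.4 and 41.1 CPM with NC and 40.1, 42.0 and 38.8 CPM with miR-497. Cebpb, a C/EBP factor that pairs with Atf4, was at 11.2, 11.6 and 11.3 CPM with NC and 11.9, 11.0 and 12.0 CPM with miR-497. The groups overlapped in all 3 genes, and the log2 fold changes of -0.04 (standard error 0.106), 0.01 (standard error 0.0692) and 0.03 (standard error 0.108) were smaller than their standard errors, with edgeR adjusted p-values of 0.77, 0.95 and 0.84. A second annotated Ddit3 identifier on the same strand covers 6.13% of the exon bases of Ddit3, and opposite-strand genes cover 4.73%. An opposite-strand gene covers 20.7% of the exon bases of Cebpb. Reads from the same-strand bases could be lost or shared under any strand setting. For the opposite-strand bases this depends on that setting, which is not given in the sources used here.

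Ppp1r15a (GADD34), the stress-induced subunit that directs a phosphatase to eIF2 and so ends the response, rose. It was at 18.8, 19.7 and 16.8 CPM with NC and at 36.4, 36.8 and 38.6 CPM with miR-497, with every miR-497 library far above every NC library. The log2 fold change was 1.01 (standard error 0.0803, edgeR adjusted p = 2.2e-08). Like Chac1 and Atf3 it is a known target of Atf4, and it moved in the opposite direction to both.

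**Figure D2:**
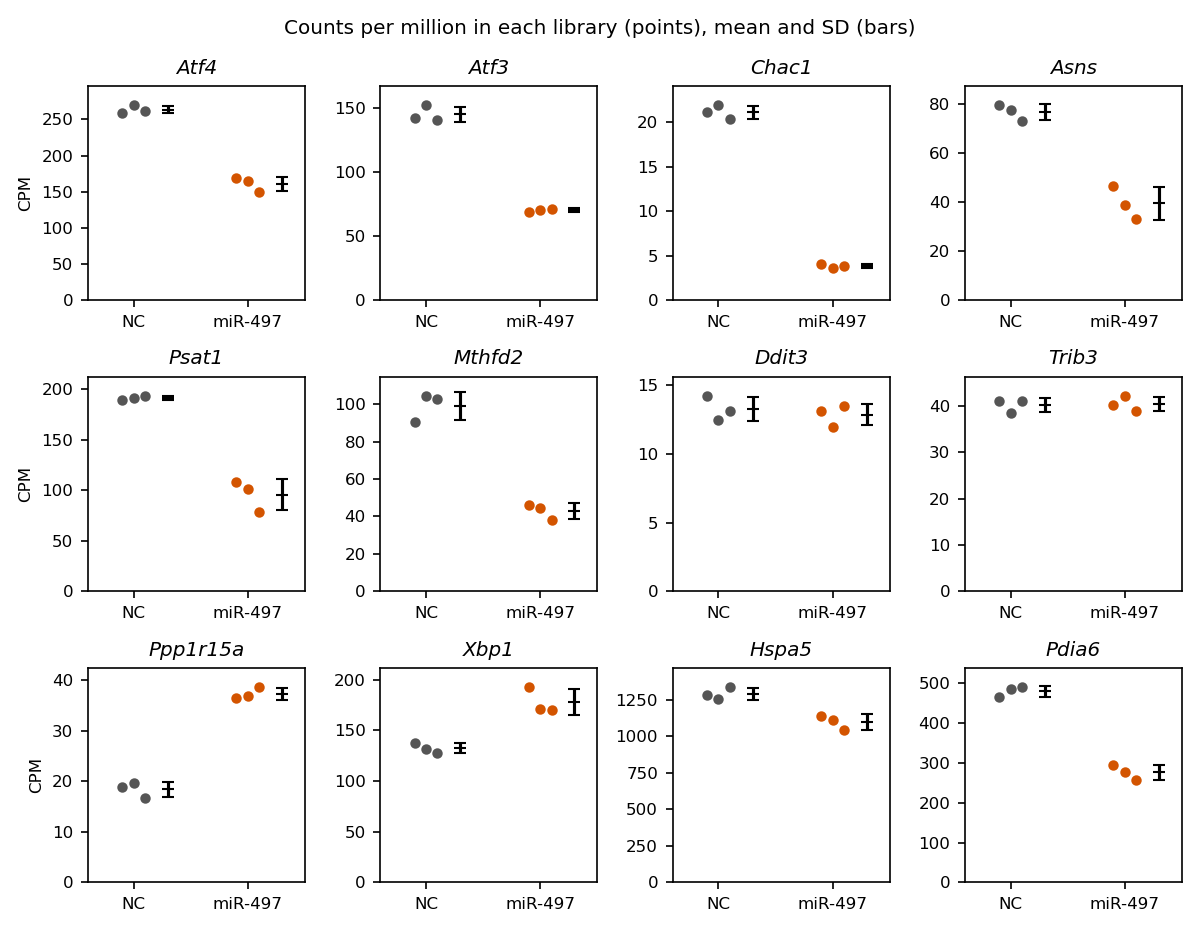
CPM (y axis, from 0) of 12 genes in each library, as points for the 3 NC and the 3 miR-497 libraries, with the group mean and SD as bars. Atf4, Atf3, Chac1, Asns, Psat1, Mthfd2, Hspa5 and Pdia6 were lower in every miR-497 library than in any NC library, Ppp1r15a and Xbp1 were higher, and Ddit3 and Trib3 overlapped.

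All 6 enzymes of serine, asparagine and mitochondrial one-carbon metabolism fell, and all 6 without overlap between the groups. Mthfd2, which oxidises folate-bound one-carbon units in mitochondria (ENSMUSG00000005667, GRCm38 chr6:83305691-83325908, minus strand), was at 90.3, 104 and 103 CPM with NC and at 46.4, 44.3 and 38.0 CPM with miR-497. Its log2 fold change was -1.21 (standard error 0.0789, edgeR adjusted p = 2.3e-09). Psat1, the second enzyme of serine synthesis, was at 189, 191 and 193 CPM with NC and at 108, 102 and 78.2 CPM with miR-497. The NC libraries agreed closely, the miR-497 libraries less so, and the mean fell by 49.9% (log2 fold change -0.997, standard error 0.0846, edgeR adjusted p = 5e-08). Asns, which makes asparagine and is a standard readout of Atf4 activity, was at 79.4, 77.4 and 73.0 CPM with NC and at 46.6, 39.0 and 33.1 CPM with miR-497. This was a fall of 48.4% (log2 fold change -0.96, standard error 0.0939, edgeR adjusted p = 2.8e-07). Phgdh, the first and committed enzyme of serine synthesis, was at 38.2, 36.9 and 32.7 CPM with NC and at 28.6, 25.0 and 20.7 CPM with miR-497 (log2 fold change -0.54, standard error 0.101, edgeR adjusted p = 0.00025).

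The remaining enzymes changed by less: Shmt2, which moves a carbon from serine to folate in mitochondria, had a log2 fold change of -0.44 and Psph, the last enzyme of serine synthesis, one of -0.38. Psph shares 10.4% of its exon bases with an opposite-strand gene. Summed over the 6 enzymes, the level was 573 to 599 CPM in NC libraries and 372, 352 and 298 CPM in miR-497 libraries 1 to 3. The third miR-497 library was the lowest of its group for all 6 enzymes. That library was also the lowest for 26 of the 39 members (66.7%), against 38.5% of all genes tested. The same held for 52 of the 80 tested pathway genes outside the 40, which are described below. It held for 8 of 10 cytosolic heat shock genes and 6 of 10 mitochondrial chaperones and proteases. Without that library all 6 enzymes still passed the test as lower.

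The transporters moved in different directions. Slc3a2, the heavy chain that brings amino acid exchangers to the cell surface, rose from 163 ± 5.49 to 219 ± 4.78 CPM (n = 3, SD; log2 fold change 0.43, edgeR adjusted p = 2.7e-06). Slc7a11, the cystine importer that pairs with it, was lower by 12.4% (log2 fold change -0.19, edgeR adjusted p = 0.0082), a call that was lost without miR-497 library 3 (edgeR adjusted p = 0.051). Slc7a5, the large neutral amino acid exchanger that also pairs with Slc3a2, was listed at 0 in every library, as were 5038 of 21897 protein-coding identifiers, so it gave no value here. Vldlr, a lipoprotein receptor induced through Atf4, had a log2 fold change of 0.12 (standard error 0.0763) and did not pass (edgeR adjusted p = 0.20).

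All 4 genes of the sensor group passed the test, 2 in each direction. Eif2ak3 (PERK) was at 34.6, 38.2 and 46.2 CPM with NC and at 55.1, 57.1 and 52.6 CPM with miR-497. The NC libraries spread widely but stayed below all miR-497 libraries (log2 fold change 0.47, standard error 0.0898, edgeR adjusted p = 0.00031). An opposite-strand gene covers 8.05% of the exon bases of Eif2ak3. Xbp1, the transcription factor made active by splicing of its mRNA by IRE1, was at 138, 131 and 128 CPM with NC and at 192, 171 and 170 CPM with miR-497, again without overlap (log2 fold change 0.42, standard error 0.0583, edgeR adjusted p = 1.2e-05). The spliced and unspliced forms are counted together. Ern1 (IRE1) was at 47.1, 48.3 and 46.8 CPM with NC and at 37.6, 38.5 and 37.6 CPM with miR-497. Its fall was modest but the replicates lay close together (log2 fold change -0.32, standard error 0.0657, edgeR adjusted p = 0.00056).

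Atf6 was at 133, 144 and 152 CPM with NC and at 123, 134 and 107 CPM with miR-497. The second miR-497 library lay just above the lowest NC library, so the groups overlapped (log2 fold change -0.24, standard error 0.0730, edgeR adjusted p = 0.012). The call was lost without NC library 3 (edgeR adjusted p = 0.061) and without miR-497 library 3 (edgeR adjusted p = 0.077). Sequence matches to the seed were found in Ern1, with 3, and in Atf6, with 2, and in neither Eif2ak3 nor Xbp1. In the shortest annotated 3' UTR, Ern1 held 0 matches and Atf6 still 2.

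**Figure D3:**
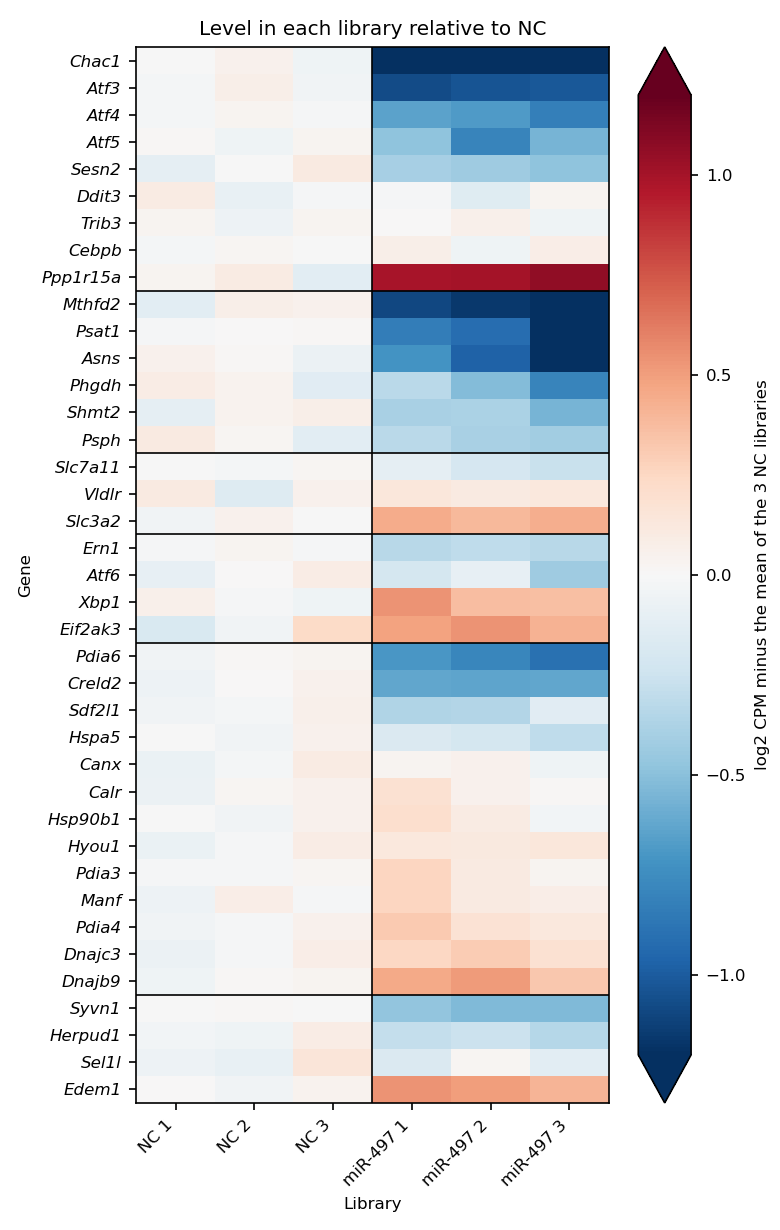
Log2 CPM of each tested gene (rows, by role) in each library (columns), minus the mean of the 3 NC libraries; red is higher and blue lower than that mean, and values past the end of the colour scale take its last colour, which applies to Chac1 in all 3 miR-497 libraries and to Mthfd2, Psat1 and Asns in miR-497 library 3. Enzymes and most regulators are blue in all 3 miR-497 libraries, and the ER chaperones show both colours.

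Of 13 ER chaperones and folding enzymes, 4 fell (30.8%), 3 rose (23.1%) and 6 did not pass, with a median log2 fold change of 0.09. These shares were near those of all genes tested, 26.0% lower and 23.8% higher. Some of these 13 genes had the highest levels of all members. Per kilobase of exon, the NC levels were 324 CPM for Pdia3, 305 for Hspa5, 279 for Canx and 257 for Calr, against 17.4 for Sdf2l1 and 18.8 for Dnajb9 in the same group. Hspa5 (BiP), the master chaperone that also holds the sensors inactive (ENSMUSG00000026864, GRCm38 chr2:34771970-34777547, plus strand), was at 1282, 1254 and 1336 CPM with NC and at 1143, 1114 and 1042 CPM with miR-497. All 3 miR-497 libraries lay below all 3 NC libraries, a fall of 14.8% (log2 fold change -0.23, standard error 0.0575, edgeR adjusted p = 0.0030).

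Pdia6, a disulfide isomerase that also restrains IRE1 and PERK signalling, fell the most of this group. It was at 464, 485 and 489 CPM with NC and at 295, 278 and 257 CPM with miR-497. The mean fell by 42.3% (log2 fold change -0.79, standard error 0.0582, edgeR adjusted p = 8.9e-09). Creld2, an ER-stress-inducible folding factor, was at 58.0, 60.8 and 62.8 CPM with NC and at 39.3, 39.0 and 39.4 CPM with miR-497. The miR-497 libraries were nearly equal, and the log2 fold change was -0.62 (standard error 0.0653, edgeR adjusted p = 5.8e-07). Sdf2l1, a partner of the BiP system, fell with -0.28 (edgeR adjusted p = 0.022), and leaving out any one of NC libraries 2 and 3 or miR-497 libraries 1 and 2 ended the call (edgeR adjusted p from 0.054 to 0.093), as did upper-quartile scaling (edgeR adjusted p = 0.061).

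The genes that rose were Dnajb9 (log2 fold change 0.43, edgeR adjusted p = 4.9e-05) and Dnajc3 (0.25, edgeR adjusted p = 0.0013), cofactors of BiP that it works with through their J domains, and the isomerase Pdia4 (0.20, edgeR adjusted p = 0.0074). The 6 genes that did not pass were Canx, Calr, Hsp90b1, Hyou1, Pdia3 and Manf, with log2 fold changes from 0.01 to 0.15 and standard errors of 0.0546 to 0.0617. All 6 were above 0, and 5 of them, all but Canx, passed as higher under at least 1 alternative. Upper-quartile scaling called all 5, the DESeq2 Wald test called Pdia3, Manf and Hyou1, the stricter filter (mean count of at least 50) called Manf and Hyou1, and DESeq2 size factors called Manf. Without miR-497 library 3, Hsp90b1, Pdia3 and Manf passed (edgeR adjusted p = 0.037, 0.017 and 0.034), and without NC library 3 Hyou1 passed (edgeR adjusted p = 0.021). Canx itself was at 1238, 1287 and 1398 CPM with NC and 1335, 1349 and 1262 CPM with miR-497, with full overlap, and its sign changed when single libraries were left out.

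ER-associated degradation, which extracts misfolded proteins for the proteasome, was also split. Syvn1 (HRD1), the ubiquitin ligase at its core, was at 57.3, 58.0 and 57.2 CPM with NC and at 41.5, 39.9 and 39.9 CPM with miR-497. Both groups were tight and well apart (log2 fold change -0.51, standard error 0.0641, edgeR adjusted p = 4.7e-06). Herpud1, which assembles the Syvn1 complex, fell with -0.30 (edgeR adjusted p = 0.0021). Edem1, a lectin that delivers glycoproteins for degradation, rose from 176 ± 5.29 to 246 ± 11.6 CPM (n = 3, SD; log2 fold change 0.48, edgeR adjusted p = 1.1e-06). Sel1l, the scaffold of Syvn1, had a log2 fold change of -0.09 (standard error 0.0747) and overlapping groups (edgeR adjusted p = 0.32).

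Other genes of the pathway, from lists that are not among the 40, were read beside these. Over all genes tested, 26.0% fell and 23.8% rose. Of 18 tested further Atf4-responsive genes, 10 fell, 2 rose and 6 did not pass, with a median log2 fold change of -0.44. Cth, which makes cysteine, was at 2.59, 2.41 and 2.31 CPM with NC and 0.477, 0.661 and 0.361 CPM with miR-497 (log2 fold change -2.27, standard error 0.344, edgeR adjusted p = 3.4e-05). The counts behind this were low, 86, 88 and 65 with NC and 12, 21 and 11 with miR-497. Mthfd1l and Aldh1l2, both of the mitochondrial folate pathway, fell with -1.05 (edgeR adjusted p = 7.8e-09) and -0.99 (edgeR adjusted p = 7.4e-06). The genes that rose were Ddit4, an mTORC1 inhibitor, with 0.47, and Slc38a2, a glutamine transporter, with 0.32. Of the 12 cytosolic aminoacyl-tRNA synthetases, many of which Atf4 induces, 8 fell and 0 rose, and the 4 that did not pass ranged from -0.12 to 0.07. The falls were small, the largest being -0.60 for Yars, -0.50 for Cars and -0.36 for Gars.

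The eIF2 kinases differed. Eif2ak2 (PKR), which senses double-stranded RNA and is interferon-inducible, was at 213, 215 and 219 CPM with NC and at 103, 102 and 87.7 CPM with miR-497, a clear separation (log2 fold change -1.14, standard error 0.0616, edgeR adjusted p = 2.2e-10). Eif2ak4 (GCN2), the sensor of uncharged tRNA, was at 47.4, 39.4 and 43.4 CPM with NC and at 30.6, 31.1 and 29.5 CPM with miR-497 (log2 fold change -0.51, standard error 0.0777, edgeR adjusted p = 3.3e-05). Eif2ak1 (HRI), the heme-regulated kinase, did not pass (log2 fold change 0.08, standard error 0.0620, edgeR adjusted p = 0.28). With Eif2ak3 above, 2 of the 4 kinases fell, 1 rose and 1 did not pass.

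The subunits of eIF2B, the exchange factor that phosphorylated eIF2 blocks, were also unequal. Eif2b2 was at 86.7, 88.1 and 81.1 CPM with NC and at 35.0, 34.8 and 31.9 CPM with miR-497, and Eif2b4 was at 25.6, 28.3 and 28.4 CPM with NC and at 49.6, 47.2 and 56.5 CPM with miR-497. Their log2 fold changes were -1.33 (standard error 0.0674, edgeR adjusted p = 1.1e-10) and 0.90 (standard error 0.0809, edgeR adjusted p = 1e-07). Eif2b5 and Eif2b3 also fell, with -0.61 (edgeR adjusted p = 1.1e-06) and -0.29 (edgeR adjusted p = 0.013). Eif2b1 did not pass, with -0.14 (edgeR adjusted p = 0.087). Eif2b4 was the only subunit that rose. The 3' UTR of Eif2b2 holds an 8mer match to the seed within 468 bases, shown with the match in capitals.
Eif2b2: gacacagcatTGCTGCTAcagtg
The kinases other than Eif2ak3, the eIF2B subunits, the eIF2 gene Eif2s1 and the phosphatase subunit Ppp1r15b formed 1 list of 10 genes. Of these, 7 fell (70.0%) and 1 rose (10.0%), against 26.0% and 23.8% of all genes tested.

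**Figure D4:**
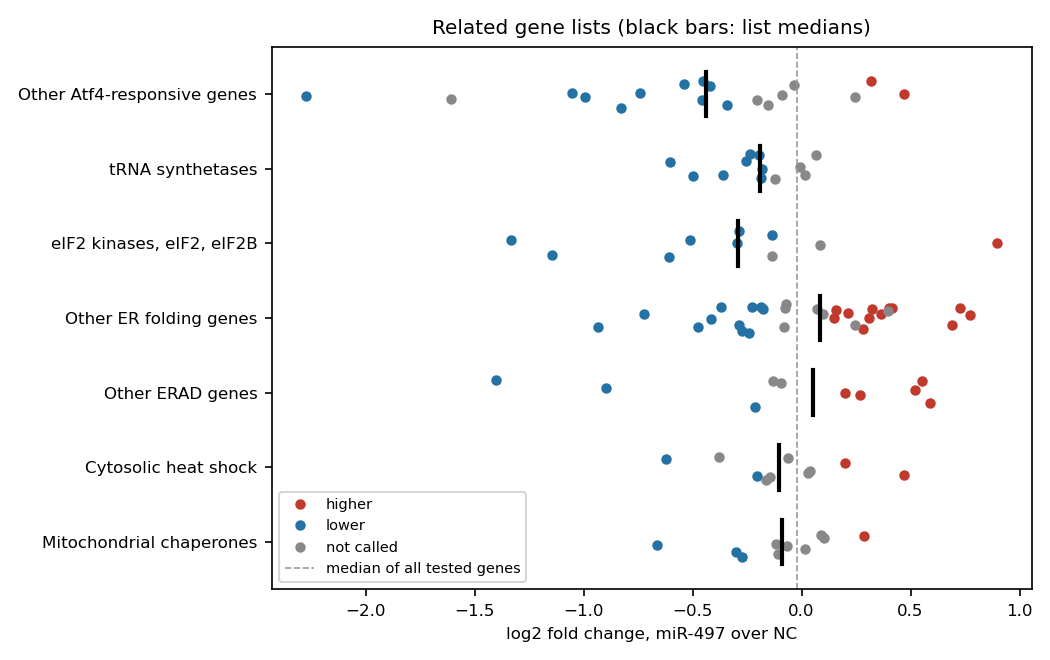
Log2 fold changes (x axis, miR-497 over NC) of the tested genes in 7 related lists that hold none of the 40 genes; points are genes coloured by the edgeR call, black bars the list medians and the dashed line the median of all tested genes. The other Atf4-responsive genes have the lowest median, -0.44, and the other ER folding genes the highest, 0.09.

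Further ER genes again had both directions. Of 30 other genes for ER folding, translocation and sensing, 12 rose and 11 fell. Sil1, the nucleotide exchange factor of BiP, fell with -0.93 (edgeR adjusted p = 8e-07). Mbtps2, a protease that releases Atf6, rose with 0.77 (edgeR adjusted p = 4.7e-08), and shares 28.4% of its exon bases with a gene on its own strand. Spcs2, a signal peptidase subunit, rose with 0.73 (edgeR adjusted p = 4.2e-08). Of 10 tested degradation genes, 5 rose and 3 fell. The ubiquitin-conjugating enzymes of the ER, Ube2g2 and Ube2j1, fell with -1.40 (edgeR adjusted p = 1.4e-10) and -0.90 (edgeR adjusted p = 2e-08), and Edem2 rose with 0.59 (edgeR adjusted p = 1.3e-06). Ube2g2, with 4 matches to the seed in its 3' UTR, was at 74.9, 79.2 and 74.8 CPM with NC and 29.7, 30.5 and 26.3 CPM with miR-497. It shares 10.3% of its exon bases with genes on its own strand. Of the other genes named in this paragraph, Ube2j1 held 2 matches, which overlap each other. Mbtps2 and Spcs2, which rose, held 1 each, and Sil1 and Edem2 held 0.

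Chaperones of other compartments served as a comparison. Of 10 cytosolic heat shock genes, 2 fell, 2 rose and 6 did not pass, with Hsph1 at -0.62 (edgeR adjusted p = 1.2e-07), Hsp90aa1 at -0.20 (edgeR adjusted p = 0.023) and Bag3 at 0.47 (edgeR adjusted p = 2.5e-06). The Hsp90aa1 call was lost without miR-497 library 3 (edgeR adjusted p = 0.11), without NC library 2 (0.0698) and without miR-497 library 2 (0.0556). Of 10 mitochondrial chaperones and proteases, 3 fell and 1 rose, with Hspa9 at -0.66 (edgeR adjusted p = 1.2e-07), Hspd1 at -0.30 (edgeR adjusted p = 0.0020) and Lonp1 at 0.29 (edgeR adjusted p = 0.00017). The medians were -0.10 and -0.09, and 4 of 10 genes were called in each list.

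Set against the sequences printed first, 7 of the 8 members with a match to the seed were lower and 0 higher, and Sel1l did not pass. Among all 12859 tested genes with a 3' UTR, 40.9% of those with a match were lower and 23.5% of those without. Matches were held by 20.5% of the members and 28.1% of all these genes. No match in the longest 3' UTR was found for 13 of the 20 lower members, Atf4, Atf3, Asns, Mthfd2 and Phgdh among them, and for 59.5% of all lower genes with a 3' UTR. With the shortest 3' UTR of each gene, 5 members held a match and 4 of them were lower. Psat1, Slc7a11 and Ern1 held 0 matches there.

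Genes that share a promoter word differed in their values. Of the 7 genes with TGATGNAA, 5 were lower (Chac1, Atf3, Asns, Herpud1 and Slc7a11) and 2, Trib3 and Vldlr, did not pass, with log2 fold changes from -2.47 to 0.12. Of the 8 genes with an ERSE, 4 were lower (Pdia6, Creld2, Syvn1 and Hspa5), Dnajc3 was higher, and Hsp90b1, Calr and Canx did not pass, with log2 fold changes from -0.79 to 0.25. Among all 39 tested members 51.3% were lower and 20.5% higher, against 26.0% and 23.8% of all genes tested. Such shares were not taken for all genes that hold each word.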

How the data were processed

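RNA was sequenced from 6 libraries, 3 per group, grouped and numbered by the sample titles. The authors deposited raw counts of reads per gene, not normalized; the submitters' processing notes name STAR 2.5.4b, featureCounts, Subread 1.6.1 and edgeR 3.32.1 and the build GRCm38, without saying which step each served. The annotation release, strand setting and handling of multiply aligned reads are not given in the sources used here.

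From these counts, symbols were attached from GENCODE M21 (55141 of 55401 identifiers matched). Genes were filtered with filterByExpr (minimum count 10, minimum total 15), scaled by TMM and tested with edgeR 4.0.16 in R 4.3.3 (quasi-likelihood F-test, group as the only term, 2-sided, Benjamini-Hochberg over 14661 genes, threshold 0.05). CPM refers to TMM-scaled library sizes, and levels per kilobase to the union of exons. Simulated data with the library sizes of this comparison held 14661 genes, of which 200 were changed, equally in both directions. Every gene was given the same common dispersion (the spread between replicates). There, 95% of genes changed by 1 on the log2 scale and 70% of those changed by 0.5 were recovered. In the real data 49.8% of genes were called and the spread differs by gene, so these rates need not hold for them. Alternatives were DESeq2 size factors, upper-quartile scaling, 2 other filters, DESeq2 1.42.0, limma 3.58.1 voom, the replicate block, each library left out and the shortest 3' UTR.

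The 40 genes, the other lists and the sequence words were chosen with earlier results of these data known. Values per library are given for regulators, sensors and other members that passed with an absolute log2 fold change of at least 0.5; from each other list the 3 called genes with the largest change are named, and the eIF2 kinases. Other values by library, and Canx, Ddit4, Slc38a2, Slc3a2, Eif2b1, Eif2b3 and Eif2b5, were chosen after their values were seen. One marker gene is not reported here.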

Additional observations from a re-analysis of the deposited data

How the results depend on the processing

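Over 13 alternatives, the number of lower members stayed between 18 and 20. The number of higher members was 8 to 11, except with upper-quartile scaling, where it was 13. Leaving out single libraries gave 8 to 11 higher and 18 to 20 lower members. Of 507 pairs of a member and an alternative, 476 kept direction and side of the threshold, 8 lost the call, 15 gained it and 8 changed sign. The changes of sign concerned genes near 0 that never passed the test. Ddit3 reached 0.00439 with upper-quartile scaling and spanned -0.0816 to 0.0078 over the fits that each omit 1 library, Trib3 -0.0226 to 0.0352 and Canx -0.0408 to 0.0695; the cause was not tested. With the shortest 3' UTR, 5 members held a seed match in place of 8, since fewer bases are searched. For 23 other genes, those that the naming rule takes from the pathway and comparison lists, 298 pairs were run. Of these pairs, 3 lost the call, all for Hsp90aa1. Ddit4, Slc38a2, Eif2b1, Eif2b3, Eif2b5 and the cell type markers were not run.

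Libraries that share a number across the groups had deviations that correlated at -0.12, -0.04 and -0.13 across genes, so no strong shared effect of the number was seen. The labels do not say whether libraries with the same number were prepared together, and these values cannot decide it. With the replicate block 8 members were higher and 20 lower, as without it. Leaving out a library leaves 2 in a group. Upper-quartile scaling moved the median of all genes to 0.03 from -0.02.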
